A study of Mus musculus with 60 samples.

Results

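Mki67 (ENSMUSG00000031004), the gene of the proliferation marker Ki-67, is described here across 60 libraries of mouse liver organoids, as 1 of 31354 genes in the 3 count tables. The gene was chosen by its measured counts: its level per library, its level in single against bulk libraries and its correlation with other proliferation genes were known when it was selected, so all these values of Mki67 are given as a description with no test. Tests are reported for other genes and for relations of Mki67 that its choice did not use. All organoids were cholangiocyte-derived cultures, grown from the liver ducts of 3-month-old male C57BL/6N mice (labelled 3-4 months old) without genetic modification or drug treatment. In the culture experiment, 3 pools of 2, 4 and 3 mice were each grown in Matrigel domes and in a shaking suspension with dilute Matrigel. In the passage experiment, bulk cultures of Sets 1, 3 and 4 were sequenced at passage 4 and passage 11, with 2 technical replicates per sample that were summed here. In the single organoid experiment, each library was 1 organoid picked from suspension culture, with 42 libraries in 4 sets, of which the study kept 35, namely 8 of Set 1, 10 of Set 2, 5 of Set 3 and 12 of Set 4. Each set came from 1 mouse, and the organoids were taken at passage 11 in Set 1, passage 3 in Sets 2 and 3 and passage 4 in Set 4, so mouse and passage cannot be told apart between sets.

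Ki-67 is a large nuclear protein that is made in dividing cells and broken down when cells leave the cycle. During mitosis it coats the chromosomes and keeps them apart, and in interphase it is found around the nucleolus and heterochromatin. Its transcript is produced mainly late in the cycle, together with those of mitotic regulators such as Cdk1, Ccnb1 and Top2a, under the control of the DREAM and B-Myb/FoxM1 complexes, which act through the CHR and CCAAT elements of promoters. In the healthy liver cholangiocytes rarely divide, whereas organoids grown from them expand in culture.

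In GRCm38 (GENCODE annotation), Mki67 lies on the minus strand of chromosome 7, at chr7:135689784-135716361, and spans 26578 bases with 14 exons. The longest coding transcript holds 10061 bases, of which exon 12 alone takes 6836 bases (chr7:135694232-135701067), the exon that encodes the Ki-67 repeats. Adenine makes up 35.2% of this transcript, a higher share than in 99.1% of the 6039 expressed genes used for comparison, and 97.9% of them had a shorter transcript. The 250 bases before the RefSeq start (GRCm38.p6) are shown for Mki67 at chr7:135716380-135716629, for Top2a at chr11:99024190-99024439 and for Cdk1 at chr10:69352913-69353162, all on the minus strand, because these 3 genes are usually read together as markers of dividing cells, and for Cenpe at chr3:135212313-135212562 on the plus strand, because its counts followed those of Mki67 most closely across organoids. Capitals mark a CHR (TTTGAA or TTCGAA) or a CCAAT box, searched on both strands, and no marked letters were shared between the motifs in the sequences printed.
Mki67: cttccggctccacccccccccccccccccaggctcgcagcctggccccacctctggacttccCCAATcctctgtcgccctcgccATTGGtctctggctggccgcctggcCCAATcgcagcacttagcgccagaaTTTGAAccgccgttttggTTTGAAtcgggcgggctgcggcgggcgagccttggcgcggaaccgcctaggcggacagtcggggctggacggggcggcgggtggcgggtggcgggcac
Top2a: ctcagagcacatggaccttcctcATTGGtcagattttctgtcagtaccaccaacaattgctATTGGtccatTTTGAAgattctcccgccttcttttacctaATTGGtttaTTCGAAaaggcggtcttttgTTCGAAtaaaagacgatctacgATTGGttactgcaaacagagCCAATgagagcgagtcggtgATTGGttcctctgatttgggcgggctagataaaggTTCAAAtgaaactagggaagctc
Cdk1: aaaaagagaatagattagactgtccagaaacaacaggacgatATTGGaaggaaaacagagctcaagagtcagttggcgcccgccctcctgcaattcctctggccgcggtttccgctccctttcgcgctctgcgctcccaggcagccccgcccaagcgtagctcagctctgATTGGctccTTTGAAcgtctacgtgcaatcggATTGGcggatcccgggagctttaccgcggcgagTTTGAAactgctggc
Cenpe: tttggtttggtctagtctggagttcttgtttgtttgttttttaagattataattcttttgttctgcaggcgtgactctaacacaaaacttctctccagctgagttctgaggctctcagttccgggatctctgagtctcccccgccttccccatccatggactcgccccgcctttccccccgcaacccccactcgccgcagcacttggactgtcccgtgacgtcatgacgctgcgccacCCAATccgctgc
The Mki67 promoter held 2 CHR elements, whose first bases lay 116 and 98 bases before the start, and 3 CCAAT boxes at 188, 166 and 141 bases. Cdk1 held 2 CHR and 3 CCAAT boxes, Top2a 4 and 6, and Cenpe a single CCAAT box and no CHR within this window. A CHR together with at least 2 CCAAT boxes was found in 2.31% of all 32851 promoter windows of 300 bases (250 before to 50 after the start) and in 47.1% of the 51 windows of the 46 G2M phase list genes that could be matched, of 53. For the S phase list only 31 of 43 genes were matched, which was too few for a share. A motif match describes the letters only.

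The depth was 1776490 to 14761853 counts per culture library, 639086 to 3175147 per technical replicate of the passage experiment and 1059002 to 11175868 per kept single organoid. Counting error was thus largest for Mki67 in bulk, where 2 dome libraries held 12 and 13 counts, and smallest in single organoids, which held 244 to 2099. The ductal markers Krt19, Krt7, Krt8, Krt18, Epcam, Sox9, Spp1, Cldn4 and Cldn7 were detected in each bulk sample and kept organoid, with Krt19 at 291 to 4609 CPM (the count scaled by the total of the library) and Epcam at 186 to 1382 CPM. Markers of immune, endothelial and mesenchymal cells, of which 7 or 8 of 12 had a row, summed to at most 67.4 CPM, a level reached in a dome culture, and hepatocyte markers, of which 8 or 9 of 10 had a row, to 224 to 2498 CPM. Levels of bulk cultures do not tell fewer dividing cells from less Mki67 RNA per cell.

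To assess the impact of the culture method, Mki67 was compared between domes and suspension. Mki67 reached 4.61, 6.89 and 6.75 CPM in the 3 domes (68, 13 and 12 counts) and 40.9, 24.8 and 41.0 CPM in the 3 suspension cultures (171, 95 and 496 counts). The groups did not overlap: the lowest suspension culture was above the highest dome. The log2 fold-change of domes against suspension was -2.26 (SE 0.30), a level 4.78-fold lower, and the mean was 6.09 ± 1.28 CPM in domes and 35.5 ± 9.35 CPM in suspension (SD, n = 3 each). The 95% counting intervals (Wilson) were 3.63 to 5.84 CPM in dome 1 and 4.03 to 11.8 CPM in dome 2, against 20.3 to 30.3 CPM in suspension 2.

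Most cell cycle genes fell in domes. Of the 95 tested genes of the S phase and G2M phase lists, which do not contain Mki67, 84 were lower in domes at an adjusted P-value under 0.05 (88.4%), and 11 were not called. Over all 12699 genes tested, 14.7% were lower and 15% higher. The median log2 fold-change was -1.46 for the lists and -0.04 for all genes, and the -2.26 of Mki67 lay below the list median. Among expressed list genes the largest decreases were those of the kinetochore proteins Cenpf (log2 fold-change -3.96, SE 0.44, adjusted P = 0.000813) and Cenpe (-3.41, SE 0.42, adjusted P = 0.00117) and of the chromatin remodeller Hells (-3.40, SE 0.33, adjusted P = 0.000677).

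The genes most often read beside Mki67 fell by different amounts. Top2a, the topoisomerase that untangles replicated DNA, was at 16.2, 10.6 and 28.2 CPM in domes and 109, 81.0 and 98.5 CPM in suspension (log2 fold-change -2.06, SE 0.25, adjusted P = 0.00101). Cdk1, the mitotic kinase, fell by 1.43 (SE 0.27, adjusted P = 0.00481) and its partner Ccnb1 by 1.29 (SE 0.31, adjusted P = 0.0132) on the log2 scale. The replication factors Pcna and Mcm2 fell by 1.25 (SE 0.22, adjusted P = 0.00436) and 1.12 (SE 0.32, adjusted P = 0.0256). The Ki-67 partner list holds proteins that bind Ki-67 or share its chromosomal layer and the kinase that phosphorylates it. Of its 13 genes 9 fell (Kif15, Cdca2, Cbx1, Cbx3, Cbx5, Npm1, Ncl, Cdk1 and Ccnb1), or 69.2% against 14.7% of all genes. The 2 that rose were 15.4% of the list, near the 15% of all genes that were higher. They were the phosphatase subunit Ppp1ca (0.78, SE 0.20, adjusted P = 0.0183) and the anaphase-promoting complex activator Fzr1 (0.81, SE 0.26, adjusted P = 0.0375), which takes part in Ki-67 degradation.

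Of 23 regulators of cell cycle transcription, 5 fell in domes (E2f3, E2f7, E2f8, Tfdp1 and Foxm1) and 18 were not called, a share of 21.7% lower against 14.7% of all genes. Foxm1, which drives the late cell cycle programme, fell by 1.39 (SE 0.42, adjusted P = 0.0317), a call that was lost with the replicate number as a block (adjusted P = 0.0529), whereas Mybl2 had a log2 fold-change of -1.16 (SE 0.48, adjusted P = 0.0918). Of 12 genes of cell cycle exit, Cdkn1a and Cdkn2a rose (16.7%, against 15% of all genes) and Ccng1 fell (8.33%, against 14.7%). Cdkn1a, the CDK inhibitor p21, was at 234, 712 and 417 CPM in domes and 116, 144 and 136 CPM in suspension (log2 fold-change 2.25, SE 0.42, adjusted P = 0.00499). The dome with the highest Cdkn1a, dome 2, also had the lowest Top2a, Cdk1 and Pcna of the 6 cultures. The lowest Mki67 was found in dome 1, but its counting interval overlapped that of dome 2, so their order is not resolved. Sox9, a ductal and progenitor factor (-0.13, SE 0.22, adjusted P = 0.702), and Hnf4a, a hepatocyte factor (0.50, SE 0.25, adjusted P = 0.156), were not called, and neither was the CDK inhibitor Cdkn1b (-0.63, SE 0.29, adjusted P = 0.131). Of 10 ductal markers, 6 were called higher in domes (60%) and 1 lower (10%), against 15% and 14.7% of all genes.

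**Figure D1:**
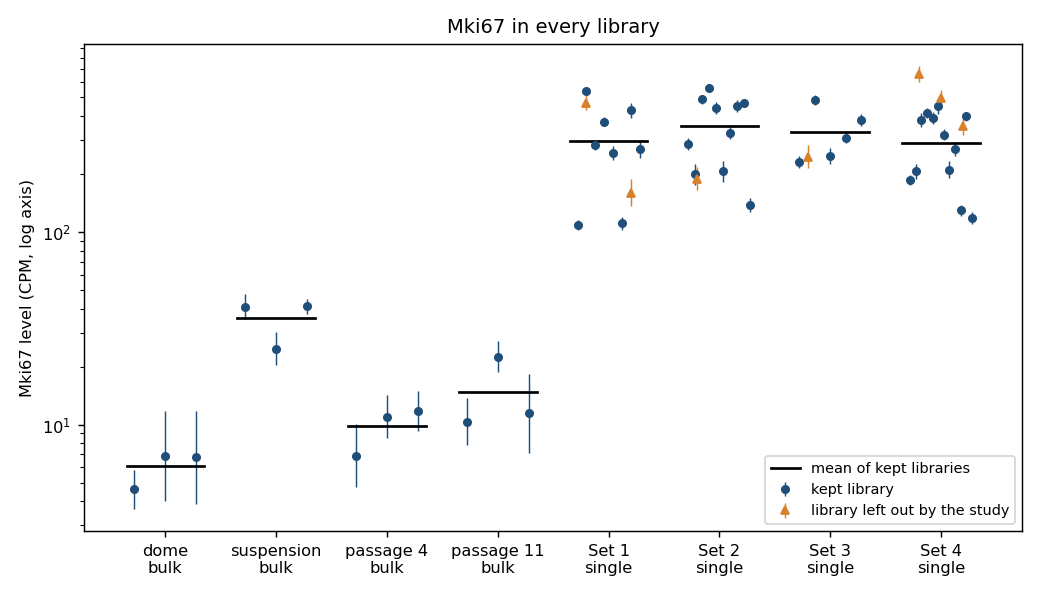
Mki67 level in CPM (log axis) in each library of the 8 groups, with technical replicates of the passage samples summed. Points are libraries with 95% Wilson counting intervals, lines are means of the kept libraries, and triangles are the 7 organoids left out by the study. Bulk cultures lay between 4.61 and 41.0 CPM and kept single organoids between 109 and 559 CPM.

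To explore the passage number, bulk cultures of the same sets were compared at passages 4 and 11 as labelled. Mki67 was at 6.90 CPM in Set 1, 10.9 CPM in Set 3 and 11.7 CPM in Set 4 at passage 4 (27, 58 and 65 counts), and at 10.4, 22.5 and 11.4 CPM in the samples labelled passage 11 (50, 111 and 17 counts). Set 3 at passage 11 stood above the other 5 samples, and the other passage 11 samples lay within the range of passage 4. The ratio of passage 11 to passage 4 within a set was 1.50 in Set 1, 2.05 in Set 3 and 0.974 in Set 4. The log2 fold-change was 0.61 (SE 0.31), with a mean of 14.8 ± 6.70 CPM at passage 11 and 9.87 ± 2.60 CPM at passage 4 (SD, n = 3 each). Without the passage 11 sample of Set 3 it was 0.15. Technical replicates of the same RNA differed by 1.13-fold to 1.49-fold, so the change in Set 4 was smaller than the technical spread.

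Most cell cycle list genes rose in the samples labelled passage 11. Of 94 tested genes 68 were higher (72.3%) and 26 were not called, with 10.1% of all 13738 genes higher and 10.1% lower. The median log2 fold-change of the lists was 1.19, against -0.05 for all genes and 0.61 for Mki67. The largest increases among expressed list genes were those of Rrm2, a ribonucleotide reductase subunit (3.01, SE 0.25, adjusted P = 0.000238), Pimreg, a mitotic regulator (2.15, SE 0.22, adjusted P = 0.000425), and Birc5, which encodes survivin of the chromosomal passenger complex (2.09, SE 0.19, adjusted P = 0.000364). The passage of each bulk sample was taken from its label and not checked by any other measure here, and exchanged labels would turn the sign of every passage difference and exchange the bulk cultures set against single organoids of the same passage. In the single organoids, list genes called in Set 1, the set at passage 11, were lower than in each of the other sets. Set 1 also differs from the other sets by mouse, and the bearing of its values on the bulk labels was not tested.

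For Cdk1 the passages did not overlap. It was at 63.9, 66.4 and 73.0 CPM at passage 4 and at 166, 172 and 192 CPM at passage 11 (log2 fold-change 1.38, SE 0.13, adjusted P = 0.000353). Ccnb1 rose by 1.82 (SE 0.18, adjusted P = 0.000418), Mcm2 by 1.16 (SE 0.21, adjusted P = 0.00494), Pcna by 1.02 (SE 0.16, adjusted P = 0.00326), Foxm1 by 1.37 (SE 0.32, adjusted P = 0.0157) and Mybl2 by 1.48 (SE 0.44, adjusted P = 0.0385). Top2a, at 35.8, 35.5 and 32.5 CPM against 40.4, 68.4 and 81.4 CPM, rose by 0.83 (SE 0.20, adjusted P = 0.0168), nearer to the value of Mki67. Of the 13 Ki-67 partners 7 rose (Ppp1ca, Cdca2, Cbx1, Cbx3, Cbx5, Cdk1 and Ccnb1), and of the 23 transcription regulators 8 rose (E2f1, E2f2, E2f4, E2f8, Tfdp1, Mybl2, Foxm1 and Nfyc), or 53.8% and 34.8% against 10.1% of all genes.

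Of the 12 exit genes 4 fell (Cdkn1a, Cdkn2b, Btg1 and Trp53inp1) and 3 rose (Cdkn2a, Cdkn2c and Cdkn2d, inhibitors of CDK4 and CDK6), which is 33.3% and 25% against 10.1% of all genes in each direction. Cdkn1a was at 346, 223 and 204 CPM at passage 4 and at 174, 154 and 102 CPM at passage 11 (-0.82, SE 0.26, adjusted P = 0.0488). Sox9 (0.39, SE 0.22, adjusted P = 0.236), Hnf4a (0.42, SE 0.16, adjusted P = 0.0855) and Cdkn1b (-0.25, SE 0.29, adjusted P = 0.574) were not called. The nuclear noncoding RNA Malat1 was at 965 to 1316 CPM at passage 4 and 113 to 176 CPM at passage 11, and at 886 to 1443 CPM in suspension and 56.9 to 168 CPM in domes. The mitochondrial share of counts was 1.64% to 2.02% in domes and 3.72% to 4.02% in suspension, and 0.895% to 1.71% at passage 11 and 1.99% to 2.63% at passage 4. Both measures were lower in domes, as was Mki67, and lower at passage 11, where cell cycle genes were higher, and their part in either result was not tested.

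**Figure D2:**
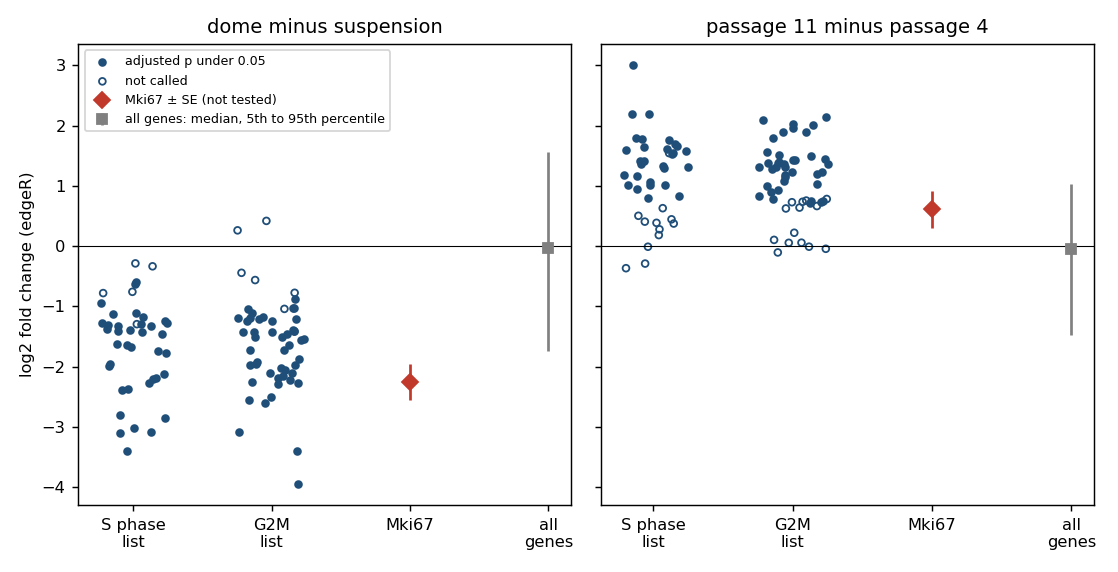
Log2 fold-change (edgeR) of the S phase and G2M phase list genes, of Mki67 with its SE and of all genes (median with the 5th to 95th percentile), for domes against suspension and for passage 11 against passage 4. Filled points passed an adjusted P-value of 0.05. Mki67 stood at -2.26, below the list median of -1.46, in the culture comparison and at 0.61, below the list median of 1.19, in the passage comparison.

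In single organoids Mki67 was detected at a higher level than in any bulk culture, and organoids of the same mouse differed up to 4.98-fold. Set 1 ranged from 109 to 540 CPM with a median of 276, Set 2 from 138 to 559 CPM with a median of 383, Set 3 from 231 to 484 CPM with a median of 308 and Set 4 from 118 to 448 CPM with a median of 294. Ordered by the median, the groups were domes (6.75 CPM), passage 4 (10.9), passage 11 (11.4), suspension (40.9), Set 1, Set 4, Set 3 and Set 2, where levels of the 3 tables were scaled separately. The highest dome (6.89 CPM) and the lowest passage 4 sample (6.90 CPM) lay side by side, the passages overlapped, and the lowest suspension culture (24.8 CPM) was above all other bulk samples. The 4 sets overlapped throughout, and only 4.53% of the variance of log2 CPM lay between them. The coefficient of variation was 50.2% in Set 1, 40.5% in Set 2, 31.4% in Set 3 and 40.6% in Set 4, against a median counting error of 3.44% to 3.76% per set. Within sets the SD of log2 CPM was 0.60, higher than that of 93.1% of the 6124 genes whose average log2 CPM reached 4 or more. The median SD of these genes was 0.38.

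The log2 differences of Mki67 between sets were small beside this spread. Set 1 stood at -0.25 (SE 0.25) against Set 2, -0.13 (SE 0.30) against Set 3 and -0.00 (SE 0.24) against Set 4. Set 4 stood at -0.25 (SE 0.23) against Set 2 and -0.12 (SE 0.28) against Set 3, and Set 2 at 0.13 (SE 0.29) against Set 3. The values against Set 3, which holds 5 organoids, turned on single organoids. Without organoid 3 of Set 3 they were 0.03 for Set 1, 0.03 for Set 4 and 0.29 for Set 2, and without organoid 4 they were -0.22, -0.22 and 0.03. The 95% intervals reached from -0.75 to 0.24 for Set 1 against Set 2 and from -0.48 to 0.47 for Set 1 against Set 4. Organoids of a set share 1 mouse, so differences between sets compare these cultures only.

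Other cell cycle genes did differ between Set 1, the set at passage 11, and the rest. Of 95 list genes, 30 were lower in Set 1 than in Set 2 (31.6%, with 7.19% of all 13927 genes lower and 7.08% higher), 17 than in Set 3 (17.9%, with 5.13% lower and 4.30% higher) and 35 than in Set 4 (36.8%, with 7.60% lower and 12.4% higher). The count against Set 3 was 9 without organoid 1 of Set 3, and with all 42 libraries the counts were 8, 7 and 25. Among list genes whose average log2 CPM reached 4 or more, the largest decreases against Set 2 were those of the histone chaperone subunit Chaf1b and the mitotic kinases Aurka and Aurkb (-0.91, -0.86 and -0.80). Against Set 3 they were those of the DNA polymerase subunit Pola1, the licensing factor Cdc6 and Chaf1b (-0.97 each), and against Set 4 those of the helicase subunit Mcm2, Chaf1b and the thymidylate synthase Tyms (-1.12, -1.12 and -1.08). Called list genes of lower average level also fell, with Ung, a uracil-DNA glycosylase named after its value was seen, at -1.20 against Set 3 and -1.21 against Set 4. Cdk1 fell in Set 1 against Set 2 (-0.68, SE 0.19, adjusted P = 0.0121) and against Set 4 (-0.69, SE 0.18, adjusted P = 0.00907), while Mki67 had log2 differences of -0.25 and -0.00 in the same comparisons. Top2a was not called in these comparisons, with -0.61 (SE 0.22, adjusted P = 0.0657) against Set 2 and -0.24 (SE 0.21, adjusted P = 0.517) against Set 4.

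Foxm1 and Mybl2, the activators of late cell cycle promoters, were lower in Set 1 in each of the 3 comparisons (log2 fold-change of Foxm1 -1.07 to -0.85 and of Mybl2 -0.87 to -0.71), and E2f2, an activator of S phase genes, was higher in each (1.36 to 1.67). Of the 12 exit genes, 2 were called higher in Set 1 than in Set 2 (16.7%) and 0 were called against Set 3. Against Set 4, 2 were higher and 2 lower (16.7% each). Cdkn1a was higher in Set 1 than in Set 4 (0.75, SE 0.22, adjusted P = 0.0165) and not called against Set 2 (0.60, adjusted P = 0.0758) or Set 3 (0.56, adjusted P = 0.185). Hnf4a was higher in Set 1 than in Sets 2 and 4 (0.64 and 0.54, adjusted P = 0.00571 and 0.0143). Between the sets at early passage few of the 95 list genes were called, at shares near or below those over all genes. Set 4 against Set 2 gave 5 higher and 2 lower (background 5.35% and 7.02%), Set 4 against Set 3 gave 5 higher (3.67%, with 7.89% lower over all genes), and Set 2 against Set 3 gave 1 higher, Aurka (0.68, adjusted P = 0.0431), with 2.05% higher and 1.88% lower over all genes. Without organoid 1 of Set 3 the count of Set 4 against Set 3 was 9, and the call of Set 2 against Set 3 was lost without organoid 1, 4 or 6 of Set 3. The anaphase-promoting complex ubiquitin-conjugating enzyme Ube2c was 0.46 (SE 0.15, adjusted P = 0.0373) and 0.75 (SE 0.19, adjusted P = 0.0077) higher in Set 4 than in Sets 2 and 3, and Cdca3, which triggers mitotic entry, 0.49 (adjusted P = 0.0284) and 0.73 (adjusted P = 0.00948). The other genes higher in Set 4 were Tyms and Birc5 in both comparisons, Ung, a uracil-DNA glycosylase, against Set 2 (0.89) and the tubulin Tubb4b against Set 3 (0.64). Ckap5, a microtubule polymerase, was lower in Set 4 than in Set 2 (-0.66, SE 0.21, adjusted P = 0.0283), as was Gas2l3 (-0.79), which links actin and microtubules. Ung, Tubb4b and Gas2l3 were named after their values were seen.

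Next, the level of Mki67 was set against other measures of the same organoids in Sets 1, 2 and 4. The 12 relations were those with library size, Hnf4a, Sox9 and Cdkn1a in each set. They were not part of the choice of Mki67, but its levels were known when it was chosen, so their P-values carry that limit. In Set 4 (n = 12) Mki67 was lower in deeper libraries (Pearson r = -0.73, permutation P = 0.0106, adjusted over the 12 relations 0.0638; Spearman rho = -0.57, permutation P = 0.0543), and r was -0.60 without the 2 organoids farthest from the median depth. The 3 deepest libraries of Set 4, with 5945252 to 7383116 counts, held the 3 lowest Mki67 levels, between 118 and 186 CPM. The corresponding r was -0.60 in Set 1 (n = 8, rho = -0.57, exact permutation P = 0.116) and 0.20 in Set 2 (n = 10, rho = 0.37, permutation P = 0.572). Without the 2 farthest organoids it was -0.18 in Set 1 and -0.19 in Set 2.

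Sox9 was higher where Mki67 was higher in Set 4 (r = 0.69, permutation P = 0.00812, adjusted 0.0638; rho = 0.60, permutation P = 0.0397; r = 0.60 without the 2 farthest), with r = 0.23 in Set 1 (exact permutation P = 0.578) and r = 0.32 in Set 2 (permutation P = 0.363), which became 0.84 and -0.44 without the 2 farthest organoids. Hnf4a gave r between -0.43 and -0.21 and Cdkn1a between -0.25 and 0.44 in the 3 sets, with permutation P-values of 0.232 to 0.521 and 0.281 to 0.564, exact in Set 1, and the 10 relations other than the leading 2 of Set 4 had adjusted P-values of 0.463 to 0.578. At an adjusted P-value of 0.05 none of the 12 relations passed with the kept organoids, and 2 had an unadjusted permutation P under 0.05, both in Set 4. With all 42 libraries those 2 passed, with r = -0.79 for library size and 0.74 for Sox9.

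Across the 35 organoids, after the mean of each set was subtracted, the genes most like Mki67 were mitotic ones. The 10 highest correlations of log2 CPM among 6123 genes whose average log2 CPM reached 4 or more were those of Cenpe (r = 0.93), Bub1 (0.92), Top2a (0.92), Kif11 (0.92), Tpx2 (0.92), Hmmr (0.92), Kif20b (0.91), Ckap5 (0.91), Nucks1 (0.91) and Anln (0.90). Cenpe and Bub1 act at the kinetochore, Kif11, Tpx2, Hmmr, Kif20b and Ckap5 at the spindle and its microtubules, and Anln in the cleavage furrow. Of these 10 genes 9 were on the G2M phase list, and Nucks1, a chromatin protein, was the exception. Kif15, a spindle kinesin that binds the forkhead-associated domain of Ki-67, ranked 13 with r = 0.90. The 3 lowest were Gabarapl2 (-0.91), an autophagy protein, Tmem59 (-0.89) and Arpc3 (-0.89), a subunit of the actin nucleator Arp2/3. These correlations compare organoids, share the same libraries, and are descriptions with no test.

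The likeness did not extend to the whole cell cycle programme. The median r with Mki67 was 0.67 over the 53 G2M phase genes and 0.47 over the 42 S phase genes, against -0.03 over all 6123 genes, but the lists spread from -0.74 to 0.93, and 24 of their 95 genes had a negative r. Cdk1 (-0.14), Ccnb1 (-0.03), Ube2c (-0.06), Mcm2 (-0.36) and Pcna (-0.39) were among the genes that did not follow Mki67, and Jpt1, named after its value was seen, was lowest (-0.74). Cdk1 ranged from r = -0.67 in Set 3 and -0.61 in Set 2 to 0.33 in Set 1, whereas Top2a was between 0.86 and 0.97 in the 4 sets. Cenpe had r of 0.93 to 0.97 in Sets 1, 2 and 4 and 0.53 in the 5 organoids of Set 3. Median r over the lists was 0.77 in Set 1, 0.44 in Set 2, 0.19 in Set 3 and 0.61 in Set 4. The width of r over all genes was large too, as 27.5% of the 6123 genes had r above 0.5 and the lower quartile was -0.57. Foxm1 (0.13) and Mybl2 (0.13) had low values, as had the 12 exit genes, with a median of 0.12 and Cdkn1b highest (0.60), and the 23 transcription regulators lay at a median of 0.40 and the 13 Ki-67 partners at 0.48.

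**Figure D3:**
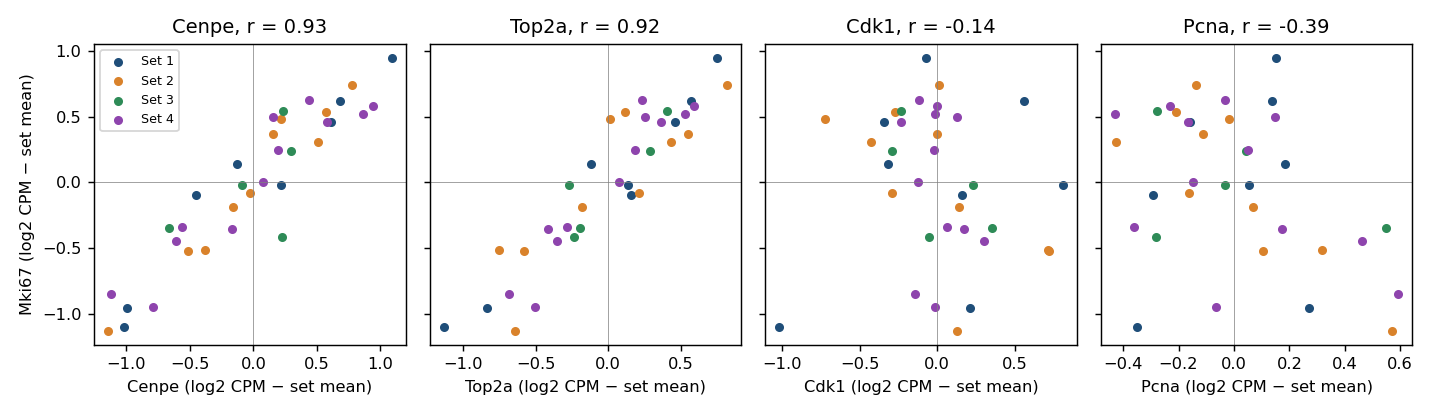
Set-centred log2 CPM of Mki67 (vertical axis) against Cenpe, Top2a, Cdk1 and Pcna (horizontal axes) in the 35 kept organoids, coloured by set. Mki67 was higher in organoids with higher Cenpe and Top2a (r = 0.93 and 0.92) and had no such relation with Cdk1 and Pcna (r = -0.14 and -0.39).

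Beside the promoters printed above, Cdk1 has the same number of CHR and CCAAT elements as Mki67 in the printed window and r = -0.14. Top2a, with 4 CHR and 6 CCAAT boxes, has r = 0.92, while Cenpe has no CHR in its window and r = 0.93. Whether these elements have a part in the correlations was not tested. Among the 95 list genes r with Mki67 correlated with the A percent of the longest coding transcript (Pearson 0.69, Spearman 0.74) and with its log2 length (0.53 and 0.55), where the points are genes of the same libraries and are not independent. The 47 list genes above the list median of 27.5% A had a median r of 0.73, and 1 of them was negative. The other 48 had a median of 0.11, and 23 of them were negative. Cenpe holds 36.5% A in 7910 bases and Top2a 32.1% in 5221 bases, against 25.7% in 4375 bases for Cdk1, 27.5% in 1518 bases for Pcna and 20.8% in 1375 bases for Jpt1.

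Genes outside the lists showed the same pattern. Sorted by A percent into 5 bins of 1207 or 1208 genes, their median r with Mki67 was -0.52, -0.39, 0.10, 0.39 and 0.55 from the lowest to the highest bin. Sorted by transcript length, the medians were -0.64, -0.44, -0.11, 0.35 and 0.57. Over these genes r with Mki67 correlated at 0.58 with log2 length and at 0.44 with A percent. In each organoid the slope of log2 CPM on A percent was then computed over these 6039 genes, a step chosen after seeing the data. Mki67 correlated with this slope at r = 0.81 over the 35 organoids, and at 0.84, 0.84, 0.71 and 0.80 in Sets 1 to 4. With the slope removed from each gene, the share of all genes with r above 0.5 dropped from 27.5% to 1.93%, and the median r of the lists was 0.41, with 5 of 95 genes negative.

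After that step Cenpe (0.80) and Top2a (0.76) remained near the top. Genes that had not followed Mki67 came closer to it: Ube2c moved from -0.06 to 0.72, Ccnb1 from -0.03 to 0.70, Cdk1 from -0.14 to 0.35, Foxm1 from 0.13 to 0.42, Pcna from -0.39 to 0.18 and Mcm2 from -0.36 to 0.17. The median was 0.52 for the G2M phase list and 0.25 for the S phase list, while Cdkn1b dropped from 0.60 to 0.04 and Sox9 from 0.37 to -0.04. List genes above and below the median A percent then had medians of 0.45 and 0.40. Whether A content, length or another transcript property has a part in the Mki67 values was not tested.

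**Figure D4:**
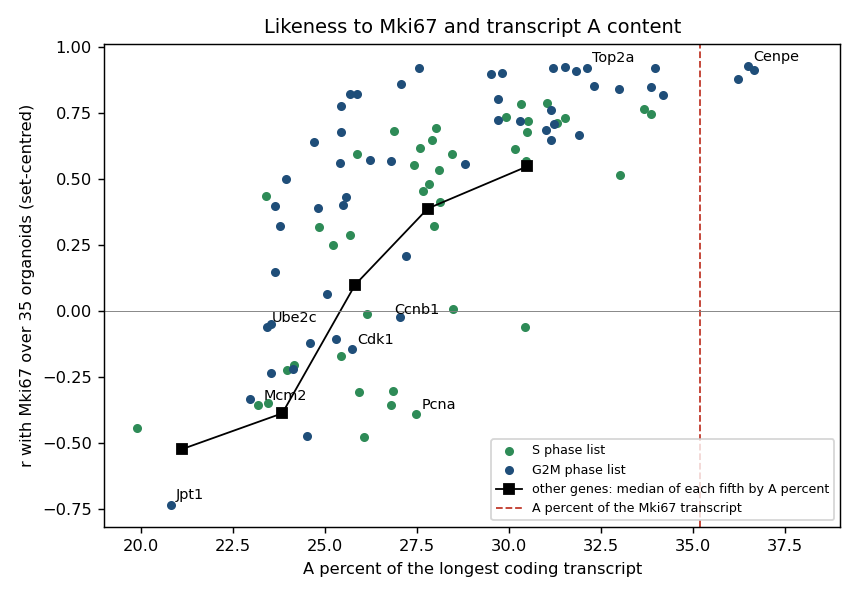
Correlation of each S phase and G2M phase list gene with Mki67 over 35 organoids (set-centred log2 CPM, vertical axis) against the A percent of its longest coding transcript (horizontal axis). Squares are medians of 5 equal bins of the genes outside the lists, which climbed from -0.52 to 0.55, and the dashed line marks the 35.2% of Mki67.

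The same transcript property also moved with the bulk comparisons. Over the list genes the log2 fold-change of domes against suspension correlated with A percent at r = -0.62 (n = 95 genes), and the same bins of the other genes went from a median of 0.56 at low A to -0.19 at high A. For passage 11 against passage 4 the correlation was -0.35 (n = 94 genes), and the bins went from 0.14 to -0.08. Over the genes outside the lists these correlations were weaker, at -0.31 for domes against suspension and -0.11 for passage 11 against passage 4. Mki67, at the high end of A percent, was below the list median in both comparisons. Whether A content has a part in these differences was not tested. Between the organoid sets the correlation over the list genes was 0.47 for Set 1 against Set 4, -0.56 for Set 4 against Set 2 and -0.51 for Set 4 against Set 3. It was near 0 in the comparisons without Set 4, at 0.03 for Set 1 against Set 2, -0.03 for Set 1 against Set 3 and -0.06 for Set 2 against Set 3 (n = 95 genes each).

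Finally, single organoids were set beside bulk cultures of the same mouse, with the 2 tables normalised separately and no test, since each bulk value is 1 sample. In Set 1, with both at passage 11, the organoids had a median of 276 CPM (109 to 540, n = 8) and the bulk culture 10.4 CPM (counting interval 7.86 to 13.7), a ratio of 26.6. In Set 4, with both at passage 4, the organoids had a median of 294 CPM (118 to 448, n = 12) and the bulk culture 11.7 CPM (9.22 to 14.97), a ratio of 25.02. Even the lowest organoid stood 10.5-fold and 10.0-fold above its bulk culture. In Set 3 the passages differed, with 308 CPM in organoids at passage 3 and 10.9 CPM in bulk at passage 4. The bulk cultures were extracted as total RNA and the single organoids as bead-captured mRNA. The single organoids came from suspension culture and were picked to be free of a necrotic lumen, while no culture format is given for these bulk cultures. Organoid scale, RNA preparation, culture format and picking thus cannot be told apart.

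Few genes differed as much. In Set 1 the log2 ratio of Mki67 was 4.67, higher than that of 99.4% of 6309 genes, and in Set 4 it was 4.59, higher than that of 99.7% of 6392 genes, whereas the median gene stood at -0.13 and -0.10. Of 74 list genes in Set 1 none was above Mki67, and in Set 4 only Hmgb2, a chromatin protein named here after its value was seen, was (5.67) of 70. In Set 3, whose organoids and bulk cultures differ in passage, 4 of 72 list genes were above the 4.75 of Mki67, the highest at 5.92. Cenpe was 15.6-fold and Top2a 8.05-fold higher in the organoids of Set 1, and 17.9-fold and 11.5-fold in Set 4. Cdk1 and Pcna were lower in the organoids than in bulk. Cdk1 was at a median of 30.0 CPM in the organoids of Set 1 and 166 CPM in bulk, a ratio of 0.181, and at 50.5 and 73.0 CPM in Set 4, a ratio of 0.691. Pcna had ratios of 0.336 and 0.675 and Mcm2 of 0.288 and 0.937, while the ductal keratin Krt19, shown as a marker of the cell type, was at 0.492 in both sets.

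Within the lists the log2 ratio ranged from -2.61 to 4.55 in Set 1 (46 genes above 0, 28 below) and from -0.56 to 5.67 in Set 4 (64 above, 6 below). It too went with the A percent of the transcript (r = 0.70 over 74 genes in Set 1 and 0.58 over 70 genes in Set 4). With log2 length the correlation was 0.62 in Set 1 and 0.49 in Set 4. The 5 bins by A percent of the genes outside the lists went from a median of -0.60 to 1.04 in Set 1 and from -0.38 to 0.45 in Set 4, whereas Mki67 was at 4.67 and 4.59. The part of A content or of length in the difference was not tested.

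**Figure D5:**
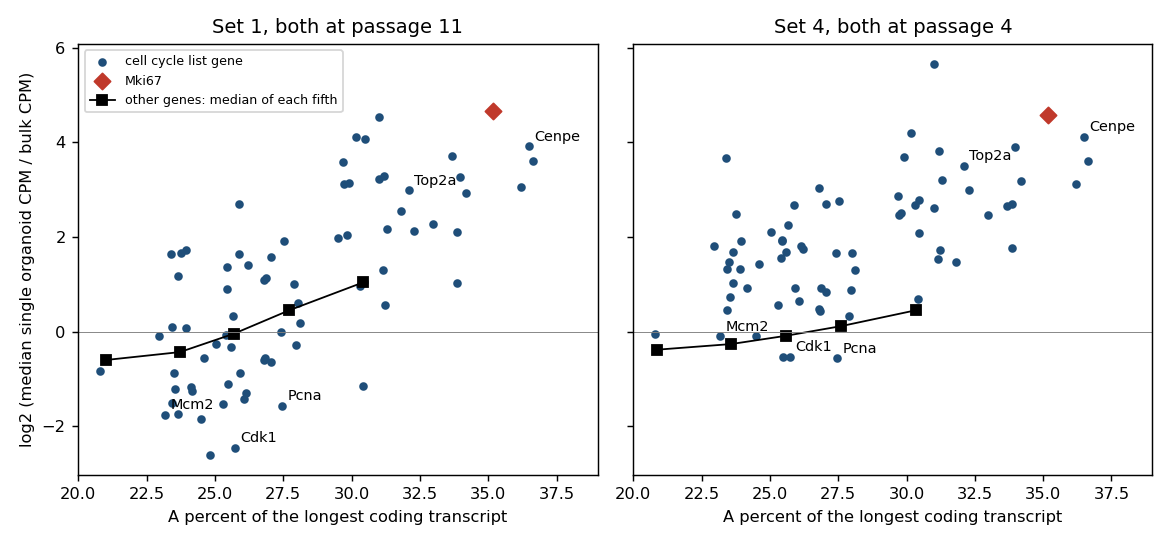
Log2 ratio of the median single organoid CPM to the bulk CPM (vertical axis) of the list genes and Mki67 against the A percent of their transcripts (horizontal axis), in Set 1 at passage 11 and Set 4 at passage 4. Squares are medians of 5 equal bins of the genes outside the lists. Mki67 stood at 4.67 and 4.59, while Cdk1 and Pcna were below 0 in both panels.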

How the data were processed

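RNA was extracted from bulk cultures as total RNA and from single organoids as bead-captured mRNA, normalised by Actb qPCR, and sequenced as 3′-end libraries with molecular identifiers. The authors mapped reads to mm10 with zUMIs (STAR, SAMtools 1.9 and featureCounts, per the submitters' processing notes) and deposited 3 tables of raw counts per Ensembl gene. Down-sampling within zUMIs is described; no source read here states if the deposited counts are molecules or reads. The sets were started in domes and moved to suspension before single organoids were taken, and the passage cultures are described as the same sets with no culture format of their own. Counting intervals (Wilson, 95%) cover counting error only.

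Groups followed the labels. Technical replicates were summed, and each table was tested separately with edgeR 4.0.16 (quasi-likelihood test, TMM, filterByExpr with a minimum count of 3, R 4.3.3), with Benjamini-Hochberg adjustment over all genes, and over the 6 set comparisons together. The 7 organoids left out by the study entered alternatives only. Correlations used log2 CPM with a prior count of 0.5 and, where tested, two-sided permutation tests with 100000 resamples, exact for Set 1 (scipy 1.17.1). Transcript features came from the longest coding transcript in GENCODE M21 and promoters from RefSeq. The edgeR and limma-voom fits and the calculation of set-centred correlations were tried on simulated data.

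Mki67, the gene lists (S phase, G2M phase, Ki-67 partners, cell cycle transcription, cell cycle exit, and ductal, hepatocyte and other cell markers) and the tests were chosen with earlier results of these data known. A ductal marker of the list is not reported here. The genes named were Mki67, the 3 called list genes with the largest fold change in each direction per comparison at an average log2 CPM of 4 or more, 11 genes fixed by name (Top2a, Cdk1, Ccnb1, Pcna, Mcm2, Foxm1, Mybl2, Cdkn1a, Cdkn1b, Hnf4a and Sox9), called genes of the partner, transcription and exit lists in the bulk comparisons, and the 10 highest and 3 lowest correlations with Mki67. In the set comparisons, only some called genes of the partner, transcription and exit lists were named. Alternatives were limma-voom (limma 3.58.1), DESeq2 1.42.0, RLE size factors, no filter, thinning to equal depth, single technical replicates, left-out samples, all 42 organoids and the replicate number as a block. Pairing was checked on deviations from group means: same-numbered dome and suspension samples correlated at 0.13, 0.13 and 0.14, and passage samples of the same mouse at 0.10, 0.02 and 0.08. Same-numbered dome and suspension samples were taken to share a pool of mice, which their titles do not state.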

Additional observations from a re-analysis of the deposited data

Results flagged for a closer look

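The 7 single organoid libraries that the study left out, which enter only the alternatives with all 42 libraries, also held Mki67. Their median was 355.032 CPM, with a range of 160 to 660 CPM at totals of 666660 to 1152914 counts, against a median of 308 CPM in the 35 kept organoids. In the kept organoids of Sets 1 to 3, Mki67 and the 11 other genes fixed by name gave no outlying library in the 36 groups tested with Dixon's criterion.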

How the results depend on the processing

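Of 268 alternative values, 249 stayed within their limit, 17 moved beyond it and 2 relations passed the threshold that had not passed before. The limit was 1.5 times for counts, the spread for fold-changes, ratios and the median r, and an adjusted P-value of 0.05 for each relation. Signs of called genes were not compared. Differences of Mki67 between sets, which carry no test, crossed 0 in 4 of 6 comparisons (-0.24 to 0.03 for Set 1 against Set 3, -0.29 to 0.00 for Set 1 against Set 4, -0.26 to 0.00 for Set 4 against Set 2 and -0.22 to 0.08 for Set 4 against Set 3). Mki67 kept its direction in domes (-2.48 to -1.97 when each sample was left out in turn, 64 to 88 list genes called) and at passage 11 (0.15 to 0.83, 55 to 68 called, with 0.15 without the passage 11 sample of Set 3). With the replicate number as a block the Mki67 log2 fold-change was -2.28 in domes with 85 list genes called, and 0.60 at passage 11 with 70 called. For single organoids the numbers are only names (4 of 35 organoids correlated best with their own number), and the block gave 2 calls for Set 4 against Set 2 and 2 for Set 2 against Set 3. It moved no other count of list genes by over 1.5 times. With all 42 libraries the list genes called were 8 for Set 1 against Set 2, 7 for Set 1 against Set 3, 4 for Set 4 against Set 2, 2 for Set 4 against Set 3 and 0 for Set 2 against Set 3 (edgeR, 5 at an unadjusted P under 0.05), and 2 of the 12 relations of Mki67 passed. When organoids of Set 3 were left out in turn, counts against Set 3 were 9 to 18 for Set 1, 4 to 9 for Set 4 and 0 to 1 for Set 2 (without organoid 1, 4 or 6 of Set 3 the count was 0, with 3, 5 and 6 at an unadjusted P under 0.05). Set 4 against Set 3 gave 9 with DESeq2. Set 2 against Set 3 gave 2 after thinning, 0 with limma-voom (8 at an unadjusted P under 0.05) and 0 when adjusted within the comparison (edgeR, 13), against 1 with DESeq2. The causes were not tested. Depth limits the dome values most, where 12 and 13 counts of Mki67 were seen.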
